A study of Arabidopsis thaliana with 6 samples.

Results

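The loci described here lie in 3 stretches of the Arabidopsis thaliana genome that take in the pericentromeres of chromosomes 2, 4 and 5. They were chosen by identifier alone: AT2G04120 to AT2G06000, AT4G05000 to AT4G08000 and AT5G29000 to AT5G35000, without AT2G05070 and AT2G05100, a pair of light-harvesting genes. These ranges hold 1229 of the 33323 loci counted in the series, 239 on chromosome 2, 510 on chromosome 4 and 480 on chromosome 5. By annotation 921 of them are pseudogenes, 280 are protein-coding genes and 14 are non-coding RNA genes, and 14 are not in the annotation. Of the 1229 loci, 222 had 10 or more reads summed over the 6 libraries, 218 had 1 to 9 reads and 789 had none. The identifiers run largely along each chromosome, and the position of the centromere itself was not read from coordinates.

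Pericentromeres are heterochromatin, which is compact, poor in active genes and rich in transposons and their decayed copies. In plants such sequence is kept silent by DNA methylation, by methylation of histone H3 and by small RNAs that guide methylation to matching DNA. Pollen is known for an exception: the vegetative nucleus, which drives the tube, loses much of this heterochromatin, while the sperm cells keep theirs. PAPS1 is a nuclear poly(A) polymerase, which adds the poly(A) tail to new transcripts.

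RNA came from cut pieces of style with pollen tubes grown in them, from wild-type Col-0 (3 libraries) and from the mutant allele paps1-1 in Col-0 (3 libraries). Which partner carried paps1-1, pollen or style, is not given in the labels. The term biological replicate is used there for wild type alone, so that p-values here cover the spread between libraries, and for paps1-1 this spread may be technical. The question put to these loci was whether they rose together in paps1-1 and in which libraries.

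Reads counted in genes numbered 13707799 to 21031017 in wild type and 4541233 to 18717968 in paps1-1, where replicate 2 was the shallowest. Reads that mapped to several places were not counted in genes, and they made up 74.6% of paps1-1 replicate 2, against 28.0% in paps1-1 replicate 1 and 7.28% to 15.1% in the other libraries. In a single library 3 reads corresponded to between 0.152 and 0.638 CPM (reads scaled to library size with TMM factors), so a locus without a read could still lie up to that level. Transcript of PAPS1 stood at 143, 101 and 104 CPM in wild type and at 88.4, 99.4 and 59.9 CPM in paps1-1, and the level of an allele's transcript is no check of the labels. All 11 pollen markers and 4 green tissue markers had reads, as did 5 of 6 style markers, with HEC1 at 0, and all 7 sperm markers, with GEX2 at 3 reads in all.

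The loci did not rise as one group. A part of the pseudogenes rose, few protein-coding genes did, and the total level of the stretches was not higher in paps1-1. Of the 222 loci with 10 or more reads, 160 passed the filter on low counts and were tested. Of these, 14 were higher in paps1-1 (8.75%) and 2 were lower (1.25%), where 1.16% and 1.18% of all 18317 genes tested were higher and lower (quasi-likelihood test of edgeR, adjusted p by Benjamini-Hochberg under 0.05). At an unadjusted p under 0.05, 23 were higher and 7 lower (10.3% of all genes in either direction). Among the 14 higher loci were 12 pseudogenes and 2 protein-coding genes, and both lower loci were protein-coding. Of the 30 pseudogenes tested 0 were lower by edgeR, DESeq2 or limma-voom (which called 3.39% and 2.11% of all genes in either direction), and 1 was lower at an unadjusted edgeR p under 0.05. Over the whole genome 19.6% of the tested pseudogenes were higher and 9.22% lower, and all 33 of the lower ones were on chromosomes 1 and 3. Of the 160 pseudogenes tested on the rest of chromosomes 2, 4 and 5, 18 were higher (11.2%) and 0 lower (0.0%), so the lack of lower calls was shared with them. The share of higher loci differed between the 3 stretches, and so did the share of pseudogenes among the loci tested. The higher loci were 3 of the 77 loci tested on chromosome 2 (3.9%), 4 of 52 on chromosome 4 (7.69%) and 7 of 31 on chromosome 5 (22.6%). Of the pseudogenes tested, 3 of 8 were higher on chromosome 2 (37.5%), 3 of 11 on chromosome 4 (27.3%) and 6 of 11 on chromosome 5 (54.5%). The difference between the stretches was not tested.

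Pseudogenes rose outside these stretches as well. Of the 66 pseudogenes with 10 or more reads only 30 passed the filter, and a locus without wild-type reads passes it only through its paps1-1 reads. With the filter at 10 summed reads, which tests all 222 loci, 20 were higher and 3 lower, where 1.22% of 21649 genes were higher and 1.18% lower. Of the pseudogenes, 17 of 66 were then higher (25.8%) and 0 lower. In that fit 14.2% of all 733 pseudogenes were higher and 5.59% lower, while of the 302 pseudogenes on the rest of chromosomes 2, 4 and 5 11.3% were higher and 0.331%, or 1, lower. The difference between these shares was not tested. The median log2 fold change, paps1-1 over wild type, was 1.36 over the 66 pseudogenes, 0.06 over the 149 protein-coding loci and 0.02 over all genes, and it was 0.42 over the pseudogenes outside the stretches. That last set includes the pseudogenes of chromosomes 1 and 3, which held 40 of the 41 pseudogenes called lower in this fit. By stretch the median was 0.28, 1.38 and 1.82 over the pseudogenes of chromosomes 2, 4 and 5. The log2 fold change was positive for 50 of 66 pseudogenes and for 82 of 149 protein-coding loci. It was positive for 422 of 667 pseudogenes outside the stretches and for 11351 of all 21649 genes.

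**Figure D1:**
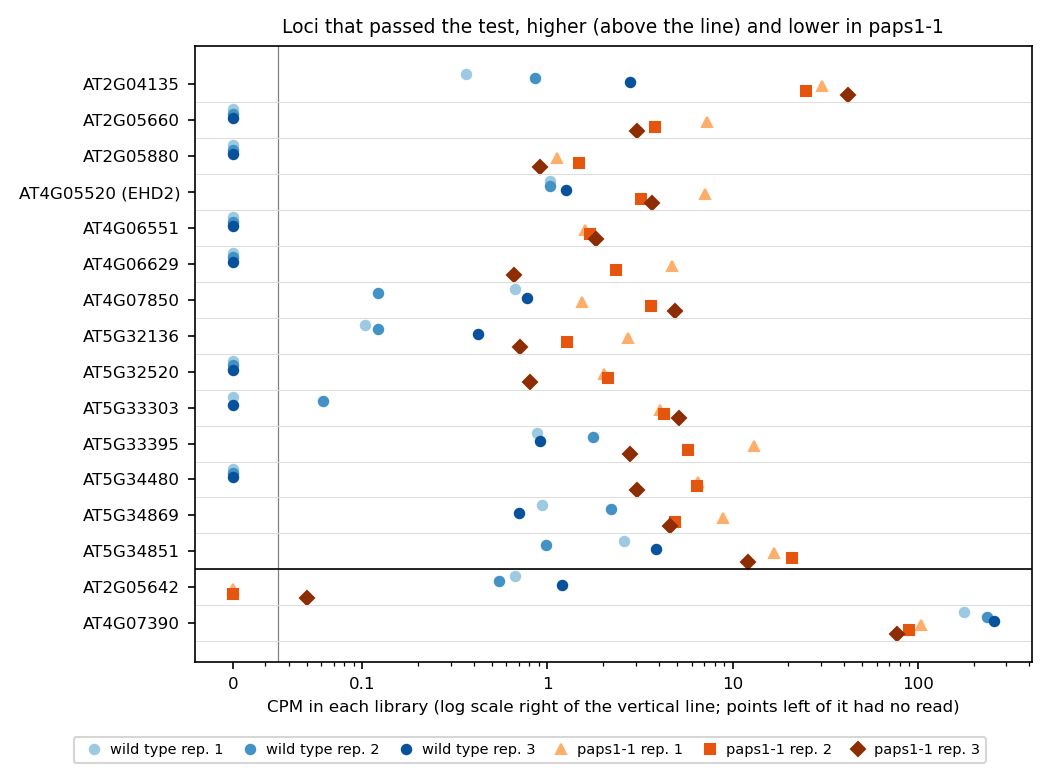
Level of each of the 16 loci that passed the edgeR test, in CPM on a log axis, with 1 point per library (blue wild type, orange to brown paps1-1). In the 14 loci above the black line every paps1-1 library lay above every wild-type library, and 6 of them had no wild-type read.

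Loci without any wild-type read were all pseudogenes. There were 14 of them with 10 or more reads, 6.31% of the 222 loci, where 0.531% of all genes had no wild-type read. Of the 66 pseudogenes they made up 21.2%, against 88 of the 733 pseudogenes of the genome and 9.27% of those elsewhere on chromosomes 2, 4 and 5, and the difference was not tested. All 14 had reads in each of the 3 paps1-1 libraries. Their summed level was 0 CPM in each wild-type library and 29.8, 20.4 and 13.1 CPM in paps1-1 replicates 1 to 3. Without paps1-1 replicate 1, 7 loci had 10 or more reads and none in wild type. In the opposite direction 1 locus had no paps1-1 read (0.249% of all genes).

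Of those 14 pseudogenes 6 passed the main test. AT2G05660 had 0 reads in each wild-type library and 122, 18 and 60 reads in paps1-1 replicates 1 to 3, or 7.24, 3.83 and 3.03 CPM. It was at least 80.6-fold higher, with the wild-type level set at 3 reads over the group (edgeR adjusted p = 2.89e-05). AT5G34480 had 109, 30 and 60 reads, or 6.47, 6.38 and 3.03 CPM, and was at least 80.2-fold higher (edgeR adjusted p = 1.69e-05). In both loci the 3 paps1-1 libraries shared the rise, with replicate 3 lowest.

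AT4G06629 was carried more by a single library. It had 79, 11 and 13 reads, or 4.69, 2.34 and 0.657 CPM, so that 76.7% of its reads came from paps1-1 replicate 1. It was at least 41.5-fold higher (edgeR adjusted p = 0.00162), and at least 16.3-fold without that library. AT4G06551, in contrast, stood at 1.60, 1.70 and 1.82 CPM, nearly level across paps1-1, and was at least 28.6-fold higher (edgeR adjusted p = 2.17e-04). AT5G32520 stood at 2.02, 2.13 and 0.809 CPM and was at least 24.2-fold higher (edgeR adjusted p = 8.47e-04). AT2G05880 stood at 1.13, 1.49 and 0.910 CPM and was at least 17.7-fold higher (edgeR adjusted p = 0.00108). With each library left out in turn, the lowest bounds of these 6 loci ranged from 10.9-fold for AT2G05880 to 49.4-fold for AT2G05660. Wild-type replicate 1 was the library left out at the lowest bound, other than for AT4G06629.

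The other 8 had too few reads for the filter, 13 to 37 each, and are known mainly from paps1-1 replicate 1, which held 112 of their reads against 12 and 56 in replicates 2 and 3. With the filter at 10 summed reads 5 of them passed. AT4G06487 had 15, 1 and 21 reads and was at least 14.9-fold higher (edgeR adjusted p = 0.00826). AT4G06527 had 24, 1 and 8 reads and was at least 13.3-fold higher (edgeR adjusted p = 0.0176). AT4G06596 and AT5G32525 were at least 9.68-fold and 8.06-fold higher, and AT5G30440, with 17, 1 and 7 reads, lay between these and AT4G06527. With each library left out in turn, the lowest bound was 9.14-fold for AT4G06487 and 4.94-fold for AT5G32525, both without wild-type replicate 1. Without paps1-1 replicate 1 it was 6.13-fold for AT4G06527, 5.45-fold for AT5G30440 and 4.08-fold for AT4G06596. AT4G07440, AT5G30400 and AT5G34862, with 14, 13 and 14 reads, did not pass, with adjusted p from 0.0736 to 0.115.

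On chromosome 4 such loci stood close together in annotation order. Among the 6 neighbouring loci with 10 or more reads from AT4G06487 to AT4G06596, 5 had no wild-type read and passed with the filter at 10 summed reads. The exception, AT4G06554, had 12 wild-type and 24 paps1-1 reads. This run was picked after its values were seen, and loci with fewer reads lie between its members. Around the 14 higher loci of the main test, 28 neighbouring positions were looked up. At 14 of them the neighbour had no read, and 4 held a tested neighbour. By edgeR 0 of these 4 passed; the pseudogene AT5G32103, beside AT5G32136, was the 1 with an unadjusted p under 0.05. With the filter at 10 summed reads 1 neighbour passed, AT5G32525 beside AT5G32520.

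**Figure D2:**
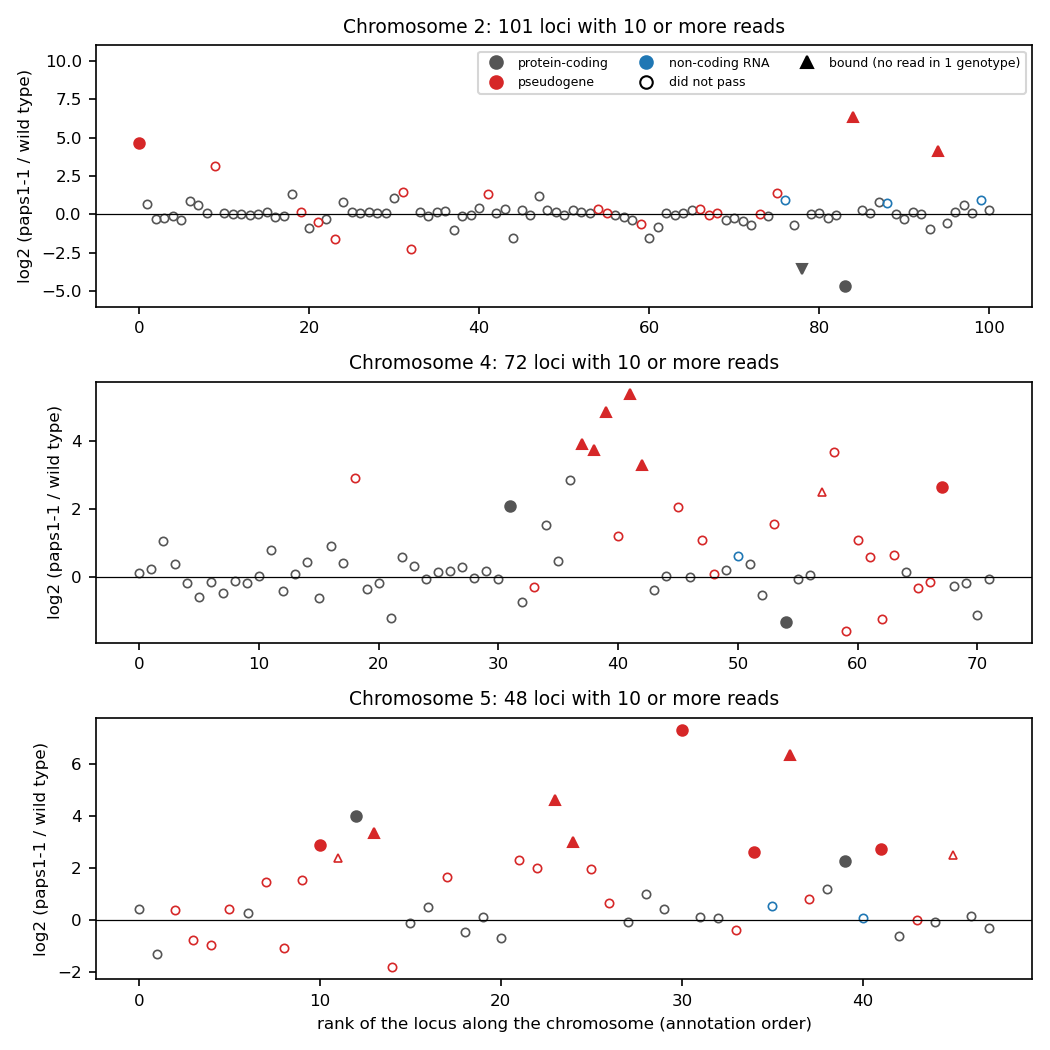
Difference between the genotypes for the loci with 10 or more reads in annotation order along each stretch, as log2 of paps1-1 over wild type from the edgeR fit with the filter at 10 summed reads. Filled symbols passed and triangles are bounds for loci without a read in one genotype. The 17 pseudogenes that rose (filled red) are on all 3 chromosomes, while most protein-coding genes (grey) lie near 0.

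The other 6 pseudogenes that rose in the main test had wild-type reads, in AT5G33303 a single one. AT2G04135 had the highest paps1-1 level of the pseudogenes that rose. It stood at 0.361, 0.855 and 2.81 CPM in wild type and at 30.5, 24.9 and 41.8 CPM in paps1-1, from 61 and 1457 reads, and rose by 4.65 on the log2 scale (SE 0.50, edgeR adjusted p = 4.08e-05). Its wild-type reads came mostly from replicate 3, and the log2 fold change was 5.73 without that library. Per kilobase of exon it reached 37.7 CPM in paps1-1, close to the 41.7 CPM of AT2G05390, the most abundant pseudogene.

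AT5G33303 had 0, 1 and 0 reads in wild type and 68, 20 and 101 reads in paps1-1. Its level was 4.04, 4.26 and 5.11 CPM in paps1-1, 229 times the wild-type level (95% interval by counting error 40.5 to 9077, edgeR adjusted p = 3.96e-06). Without wild-type replicate 2, which held the only wild-type read, it was at least 51.2-fold higher. As 1 read is under the floor of 3 reads, the ratio cannot be ranked against the bounds of the loci without wild-type reads. The 3 paps1-1 libraries differed little from each other here.

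AT5G34851 stood at 2.58, 0.977 and 3.86 CPM in wild type and at 16.7, 20.9 and 12.1 CPM in paps1-1. It rose by 2.73 on the log2 scale (SE 0.39, edgeR adjusted p = 6.34e-04), and the groups were well apart. The next locus along the chromosome, the abundant thionin family gene AT5G34828, had a log2 fold change of -0.60 (SE 0.38) and did not pass (edgeR adjusted p = 0.691).

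For the remaining 3 pseudogenes that rose, the call was lost without single libraries, in part at a fold close to that of all libraries. AT5G33395 stood at 0.878, 1.77 and 0.912 CPM in wild type and at 13.1, 5.75 and 2.78 CPM in paps1-1 (log2 fold change 2.61, SE 0.50, edgeR adjusted p = 0.00749). Replicate 1 was the highest paps1-1 library, and without it the log2 fold change was 1.75 and the call was lost (edgeR adjusted p = 0.0635), as it was without wild-type replicate 3, at a log2 fold change of 2.45 (edgeR adjusted p = 0.0858). AT4G07850 stood at 0.671, 0.122 and 0.772 CPM in wild type and at 1.54, 3.62 and 4.90 CPM in paps1-1 (log2 fold change 2.66, SE 0.56, edgeR adjusted p = 0.0152). Here replicate 3 was the highest, and the call was lost without it, without wild-type replicate 2 or without wild-type replicate 3 (edgeR adjusted p = 0.137, 0.0586 and 0.0532). The log2 fold change was then 2.17, 2.20 and 2.97. AT5G32136 had 10 reads in wild type and 66 in paps1-1, a ratio of 7.98 (95% counting interval 4.08 to 17.4, edgeR adjusted p = 0.0294). Its levels were 0.103, 0.122 and 0.421 CPM and 2.73, 1.28 and 0.708 CPM. The ratio was 4.08 without paps1-1 replicate 1 and 14.3 without wild-type replicate 3. The call was lost without wild-type replicates 1 or 2 or paps1-1 replicates 1 or 2 (edgeR adjusted p = 0.0876, 0.128, 0.280 and 0.0529). The log2 fold change was then 2.56, 2.66, 2.09 and 2.99, against 2.92 with all libraries.

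Most pseudogenes with more wild-type reads did not pass. Of the 19 with 30 or more wild-type reads, 3 rose, AT2G04135, AT5G33395 and AT5G34851, and the median log2 fold change was 0.12. Over the 33 with 1 to 29 wild-type reads the median was 1.32, and splitting by the wild-type count ties the groups to the measured difference, so these medians are a description. AT2G05390 held more reads than all other pseudogenes of the stretches together, at 113, 65.3 and 308 CPM in wild type and 157, 111 and 234 CPM in paps1-1 (log2 fold change 0.05, SE 0.45). Its groups overlapped, with wild-type replicate 3 the highest library, and without that library the log2 fold change was 0.88 (edgeR adjusted p = 0.392). MUG8, a MUSTANG gene derived from a transposase and annotated here as a pseudogene, stood at 8.26, 8.30 and 7.79 CPM in wild type and at 7.77, 7.45 and 9.05 CPM in paps1-1 (log2 fold change 0.00, SE 0.24). AT4G07507 had the largest difference of those that did not pass, with 4.48 ± 1.91 and 9.45 ± 5.02 CPM (SD, n = 3; log2 fold change 1.09, SE 0.40, edgeR adjusted p = 0.261). MUG8 and AT4G07507 were named after their values were seen.

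**Figure D3:**
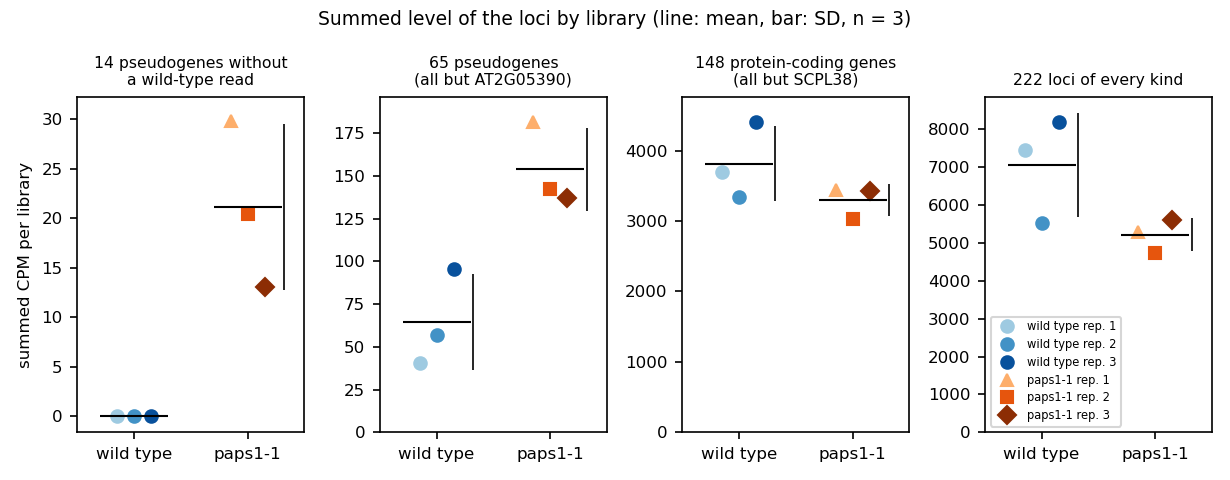
Summed CPM of 4 sets of loci in each library, with 1 point per library, a line at the mean and a bar of 1 SD (n = 3 per genotype). The sum of the 65 pseudogenes other than AT2G05390 is higher in every paps1-1 library, while the sums of protein-coding genes and of all loci are not. Of these 65, 26 had every paps1-1 library above every wild-type library and 2 had every one below. With AT2G05390 included the sums overlap. The 14 pseudogenes without a wild-type read were chosen by their wild-type counts, so their difference was fixed by that choice.

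The total level of the stretches did not rise with the pseudogenes. All 66 pseudogenes summed to 154, 122 and 404 CPM in wild type and to 339, 254 and 371 CPM in paps1-1, which overlap. Without AT2G05390, the other 65 pseudogenes summed to 40.6, 57.0 and 95.5 CPM in wild type and to 181, 143 and 137 CPM in paps1-1. The groups then did not overlap. The 12 pseudogenes that rose summed to 4.60, 3.91 and 8.77 CPM and to 91.7, 78.5 and 77.6 CPM. That set was chosen by the test on these same libraries, so its difference was fixed by the choice. With those 12 and AT2G05390 left out, 53 pseudogenes summed to 36.0, 53.1 and 86.7 CPM in wild type. In paps1-1 they summed to 89.7, 64.0 and 59.7 CPM, so the groups overlapped, and this set rests on the same choice. The 149 protein-coding loci summed to 7273, 5395 and 7763 CPM in wild type and to 4920, 4471 and 5220 CPM in paps1-1. All 222 loci took 0.684%, 0.660% and 0.604% of the gene reads in wild type and 0.589%, 0.490% and 0.592% in paps1-1, a difference of -0.0926 percentage points. In these shares that sign came from 1 gene. Without SCPL38 the shares were 0.355%, 0.415% and 0.355% and 0.423%, 0.341% and 0.402%, which overlap, and the difference was 0.0135 percentage points. In paps1-1 replicate 2 the 18S ribosomal RNA locus AT3G41768 held 10.5% of the gene reads, against 0.110% to 0.732% in the other libraries. Its reads are in the totals behind these shares, which lowers the shares of replicate 2. In CPM the loci without SCPL38 summed to 3857, 3476 and 4813 in wild type and to 3789, 3298 and 3807 in paps1-1. These ranges overlap, and the paps1-1 levels were not higher.

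SCPL38 (AT2G05850), a serine carboxypeptidase-like gene, was the most abundant locus. It stood at 3576, 2049 and 3361 CPM in wild type and at 1482, 1440 and 1794 CPM in paps1-1. Every paps1-1 value lay below every wild-type value, but the log2 fold change of -0.93 (SE 0.36) did not pass the edgeR test (adjusted p = 0.301), while DESeq2 called it lower (adjusted p = 0.0207). Pollen markers summed to 46426, 24327 and 59938 CPM in wild type and to 24259, 26491 and 36333 CPM in paps1-1, and their part in the level of SCPL38 was not tested. In bulk tissue of this kind, fewer cells of a type and less RNA per cell cannot be told apart.

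Of the protein-coding loci 2 rose. EHD2 (AT4G05520), an EH-domain protein of endocytosis, stood at 1.03, 1.04 and 1.26 CPM in wild type and at 7.06, 3.19 and 3.69 CPM in paps1-1 (log2 fold change 2.10, SE 0.38, edgeR adjusted p = 0.00416). Replicate 1 was the highest paps1-1 library, and without it the edgeR adjusted p was 0.0502. AT5G34869, an uncharacterised gene, stood at 0.929, 2.20 and 0.702 CPM and at 8.84, 4.89 and 4.60 CPM (log2 fold change 2.27, SE 0.42, edgeR adjusted p = 0.00580). Without wild-type replicate 3 its adjusted p was 0.0501, and without wild-type replicate 2 the log2 fold change was 2.90. With the filter at 10 summed reads AT5G31412 rose as well, which is annotated as a protein of the hAT transposon superfamily. It had 0, 3 and 1 reads in wild type and 44, 2 and 17 in paps1-1, a ratio of 19.1 (95% counting interval 7.08 to 72.1, edgeR adjusted p = 0.0143), with most reads in replicate 1.

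Both loci that fell were protein-coding. AT4G07390 encodes the homologue of a human protein that cells need to use mannose-P-dolichol in building glycans. It stood at 178, 237 and 258 CPM in wild type and at 104, 89.4 and 77.1 CPM in paps1-1, with no overlap, and fell by 1.31 on the log2 scale (SE 0.27, edgeR adjusted p = 0.0144). The fold was about the same without paps1-1 replicate 2 or 3, but the adjusted p was then 0.0930 and 0.0973. AT2G05642, an OB-fold nucleic acid-binding protein gene, had 13, 9 and 17 reads in wild type and 0, 0 and 1 in paps1-1. The ratio of wild type to paps1-1 was 32.2 (95% counting interval 5.46 to 1306, edgeR adjusted p = 0.00896). It was 19.1 without paps1-1 replicate 1, where the call was lost (edgeR adjusted p = 0.0598), and at least 5.60 without replicate 3, which held the only paps1-1 read. AT2G05540, a glycine-rich protein gene, had 34, 4 and 5 reads in wild type and none in paps1-1. It was at least 11.8-fold lower and passed with the filter at 10 summed reads (edgeR adjusted p = 0.0320), but 79.1% of its reads came from wild-type replicate 1, and the bound was 4.05-fold without it.

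The other abundant genes of the stretches did not pass. On chromosome 4, the polyubiquitin gene UBQ10 averaged 593 ± 138 CPM over wild type and 472 ± 80.0 CPM over paps1-1, and UBQ11 averaged 333 ± 37.2 and 226 ± 45.0 CPM (SD, n = 3). Their log2 fold changes were -0.33 and -0.56. Ubiquitin genes share repeated sequence, so their counts are uncertain. CSLC12, of the family that makes the glucan backbone of xyloglucan, stood at 137, 126 and 543 CPM in wild type and at 118, 120 and 137 CPM in paps1-1. Its log2 fold change was -1.10 with all libraries and -0.10 without wild-type replicate 3. AGD13, a regulator of ARF GTPases, was also highest in that library, at 305 CPM against 138 to 210 CPM in the others (log2 fold change -0.16).

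On chromosome 2, the CCCH zinc finger gene AT2G05160, which has an RNA-binding domain, averaged 360 ± 102 CPM over wild type and 317 ± 25.2 CPM over paps1-1 (SD, n = 3), with a log2 fold change of -0.18. The OB-fold gene AT2G04520 and AT2G04220, which encodes a protein of unknown function, had log2 fold changes of 0.17 and -0.31. On chromosome 5, PAP26, a purple acid phosphatase gene, averaged 141 ± 42.4 and 135 ± 2.19 CPM (SD, n = 3; log2 fold change -0.06). The thionin family gene AT5G34828, of a class of small antimicrobial peptides, averaged 80.7 ± 39.7 and 53.1 ± 21.8 CPM. The CUE-domain gene AT5G32440, AT5G30490 and CUE1, a phosphate translocator of the plastid envelope, had log2 fold changes of -0.44, -0.08 and 0.12. Per kilobase of exon, SCPL38 was the highest of these genes in wild type, at 1437 CPM, followed by AT5G34828 at 292 CPM and UBQ10 at 290 CPM, and that pair did not differ beyond their spread. Of the 6 non-coding RNA loci 4 were tested and did not pass. The snoRNA gene AT2G05765, whose class guides chemical changes of ribosomal RNA, stood at 2.12, 2.32 and 2.88 CPM in wild type and at 2.37, 8.09 and 3.24 CPM in paps1-1, with replicate 2 apart.

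In each paps1-1 library more pseudogenes lay above the wild-type range than below it. Of the 66 pseudogenes, 40 lay above all 3 wild-type libraries in paps1-1 replicate 1 (60.6%), 36 in replicate 2 (54.5%) and 33 in replicate 3 (50.0%). Over all 733 pseudogenes of the genome, which include these 66, the shares were 46.9%, 49.2% and 34.7%. Over those elsewhere on chromosomes 2, 4 and 5 they were 47.7%, 46.7% and 34.1%. The pseudogenes below all 3 wild-type libraries numbered 5, 11 and 8, or 7.58%, 16.7% and 12.1%, against 18.3%, 21.4% and 27.1% of all pseudogenes and 10.3%, 15.2% and 22.5% of those elsewhere on chromosomes 2, 4 and 5. In replicate 2, where 11 of the 66 had no read, the shares above and below lay nearest to those of both comparison sets. For the 149 protein-coding loci the shares above were 27.5%, 24.2% and 34.2%, against 23.2%, 27.0% and 28.4% of all protein-coding genes. The shares below were 18.8%, 23.5% and 16.1%, against 23.1%, 26.5% and 24.2%.

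**Figure D4:**
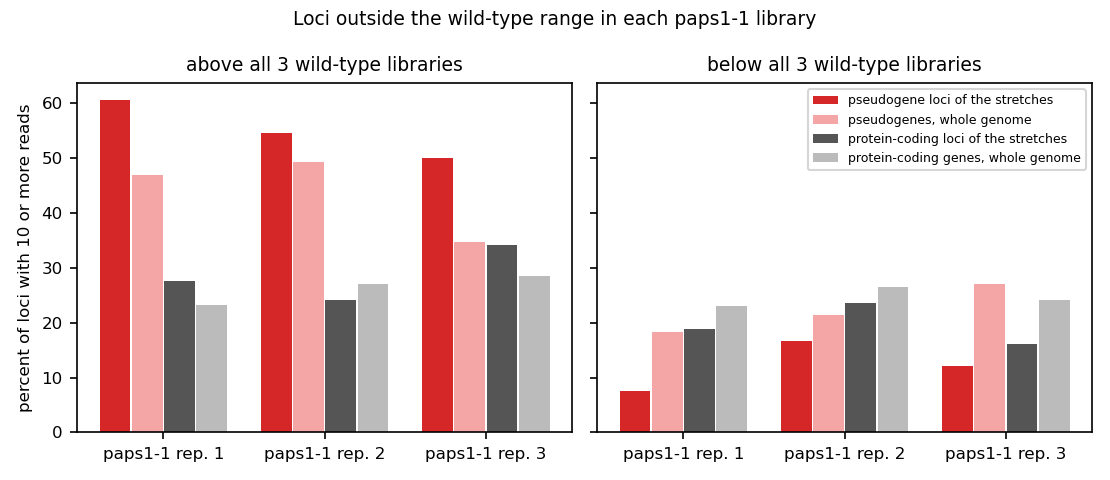
Share of loci with 10 or more reads that lay above (left) or below (right) all 3 wild-type libraries in each paps1-1 library, in percent. In each library more pseudogenes of the stretches lay above than below the wild-type range, with the largest share above, 60.6%, in replicate 1, while protein-coding loci differed less from the shares of the whole genome.

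Loci in which every paps1-1 library lay above every wild-type library numbered 40 of 222 (18.0%; 7.15% of all genes), and those with every paps1-1 library below numbered 12 (5.41%; 7.81% of all genes). Of the pseudogenes 26 of 66 (39.4%) lay above in this way and 2 (3.03%) below, against 25.2% and 11.3% of all pseudogenes and 21.9% and 2.98% of those elsewhere on chromosomes 2, 4 and 5. Of the protein-coding loci 14 lay above (9.40%) and 10 below (6.71%), against 6.56% and 7.66% of all protein-coding genes. Among the 14 loci that rose in the main test, the highest library was replicate 1 in 7, replicate 2 in 3 and replicate 3 in 4, and replicate 3 was the lowest paps1-1 library in 9. AT2G05480, a pseudogene left out by the filter of the main test, had 63.2% of its reads in 1 library, with 0, 8 and 3 reads in wild type and 24, 0 and 3 reads in paps1-1.

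Loci with fewer than 10 reads leaned the same way. The 218 loci with 1 to 9 reads, 170 of them pseudogenes, held 171 wild-type and 437 paps1-1 reads in all. Their summed level was 2.63, 3.78 and 4.07 CPM in wild type and 11.9, 16.0 and 8.14 CPM in paps1-1, so the groups did not overlap. No wild-type read was found for 126 of them (57.8%; 30.3% of all genes with 1 to 9 reads) and no paps1-1 read for 35 (16.1%; 26.9% of all such genes). These shares were not compared with those of pseudogenes elsewhere, so a lean particular to the stretches is not shown. At 10 or more reads 88 of the 733 pseudogenes of the genome had no wild-type read, against 115 of all 21649 genes. At the threshold, the 6 loci with 9 reads held 12 wild-type and 42 paps1-1 reads, and the 6 loci with 10 reads held 30 and 30.

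Copies elsewhere in the genome limit what such counts can show, because a read that matches several places was not counted. The share of each locus's exonic 31-base words that occur once in the TAIR10.1 assembly had a median of 100% over protein-coding loci and 72.1% over the 66 pseudogenes (range 8.07% to 100%). It was 84.1% over the 12 pseudogenes that rose (range 31.6% to 99.1%). AT4G07850, at 31.6%, and AT2G05880, at 39.7%, were the least distinct of them, and AT5G32136, at 99.1%, and AT4G06551, at 91.7%, the most. No locus that passed overlaps another annotated locus, while 34 of the 222 do, and the counts ignore strand. The share of reads mapping to several places was highest in paps1-1 replicates 2 and 1, and its part in these results was not tested.

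Genes that act in keeping heterochromatin silent were compared next. Of 37 listed genes of DNA methylation, small RNA silencing and demethylation, all tested, 1 rose and 0 fell, where 1.16% of all genes rose and 1.18% fell. At an unadjusted p under 0.05, 4 were higher and 0 lower by edgeR, a share near the 10.3% of all genes, and DESeq2 and limma-voom called 1 each. IDN2, a double-stranded RNA-binding protein of RNA-directed DNA methylation, rose from 5.96 ± 1.17 to 16.2 ± 1.56 CPM (SD, n = 3; log2 fold change 1.45, SE 0.26, edgeR adjusted p = 0.00387). DCL3, which cuts the small RNA precursors of that pathway, averaged 1.88 ± 0.358 and 4.04 ± 0.774 CPM and did not pass (edgeR adjusted p = 0.120). ROS1, a DNA demethylase, and CMT2, a methyltransferase of heterochromatin, had log2 fold changes of 0.70 and 0.74 and did not pass. MET1, which maintains CG methylation, stood at 94.8 ± 18.5 and 65.7 ± 6.98 CPM (log2 fold change -0.53, SE 0.25, edgeR adjusted p = 0.490). Over the 37 genes the median was 0.06, and 22 were positive.

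The summed level of the sperm cell markers was higher in paps1-1, but not that of every marker. The 7 sperm markers summed to 51.0, 85.9 and 91.7 CPM in wild type and to 141, 139 and 102 CPM in paps1-1, without overlap. DAZ2, 1 of them, was called higher, where 1.16% of all genes were. HTR10 stood at 20.3, 40.0 and 33.3 CPM in wild type and at 47.0, 48.7 and 27.8 CPM in paps1-1, so its groups overlapped. Those of DUO1 overlapped as well, and those of GCS1, DAZ1, DAZ2 and DMP9 did not. Of the defining markers GEX2 had no paps1-1 read. The 6 style markers summed to 33.8, 28.1 and 21.8 CPM and to 35.7, 30.4 and 33.9 CPM, and the 4 green tissue markers to 77.2, 67.3 and 89.0 CPM and to 53.8, 59.2 and 296 CPM, with replicate 3 apart. Their part in the rise of the pseudogenes was not tested.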

How the data were processed

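The deposited values are counts of whole reads for each gene, laid out as STAR writes them. The submitters' processing notes name STAR and the TAIR10 genome, with no version, annotation or settings. Per the labels' protocols, RNA was isolated with the PicoPure kit and mRNA libraries were sequenced on a HiSeq2000. Totals of the strands had ratios of 1.02 to 1.07, and counts that ignore strand were used. Multi-mapping reads and other rows naming no gene, reads outside genes (2.71% to 9.93%) among them, stayed out of library sizes and tests. No library was a copy of another (chi-square over its degrees of freedom at least 31.2 for every pair).

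The members and lists were chosen with earlier results of these data known. Genes were kept by filterByExpr (minimum count 10), scaled by TMM and tested in edgeR 4.0.16 (quasi-likelihood, R 4.3.3, two-sided, Benjamini-Hochberg over all genes tested, called under 0.05), tested on simulated data first. The common biological coefficient of variation was 0.263. Alternatives were upper-quartile and RLE factors, DESeq2 1.42.0, voom of limma 3.58.1, other filters, the strand with the larger total, chromosomes 2, 4 and 5 alone, no ribosomal RNA genes, a replicate block and left-out libraries. Where a genotype had no read, a bound was set at 3 reads over the group. With 1 to 10 reads an exact binomial interval of the ratio is given at 95%, which covers counting error only.

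Kinds of gene, products and order came from the annotation of TAIR10.1, which matched 32835 of 33323 identifiers and missed 488. As its build differs in name, no coordinates or sequences are given. Named were all called loci, the 5 per stretch with the most reads, the 3 per stretch with the largest share of reads in 1 library (at 30 or more reads), and 5 silencing genes with the smallest p. Loci named outside this rule are in counts of 5 or fewer or among the loci without wild-type reads, or were chosen after their values were seen.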

Additional observations from a re-analysis of the deposited data

Results flagged for a closer look

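Reads that the gene counts leave out differed between the genotypes. In paps1-1 replicates 1 and 2, reads mapping to several places made up 28.0% and 74.6%, above the highest wild-type library at 15.1%, and reads outside genes made up 4.95% and 9.93%, above the highest wild-type library at 3.95%. In paps1-1 replicate 3 both shares, 7.75% and 2.71%, lay within or below the wild-type range. The loci that the uncounted reads came from were not analysed here.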

How the results depend on the processing

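The 16 called loci were compared under 18 alternatives each where tested: of 269 comparisons 24 kept the direction and lost the call, 0 reversed and the others kept both. In 8 loci no call was lost. With no filter 25 loci were higher (21 pseudogenes) and 5 lower. With 5 CPM in 3 libraries 2 were higher, both pseudogenes, and 1 lower, because few of these loci reach that level. The strand with the larger total gave 1 lower locus. DESeq2 called 14 higher and 3 lower (3.39% of all genes in either direction) and limma-voom 12 and 2 (2.11%). With each library left out, 12 to 15 loci were higher, 10 to 12 of them pseudogenes, and 1 to 2 lower. Without wild-type replicate 3 and paps1-1 replicate 2 together 10 were higher and 0 lower (adjusted p of AT4G07390 0.126, of AT2G05642 0.134). The loci with no wild-type read numbered 7 to 16, and those with no paps1-1 read 0 to 3. The share of gene reads, -0.115 to -0.0593 percentage points with a library left out, reversed to 0.0149 for the pseudogenes, 0.0106 without AT2G05390 and 0.0135 for all loci without SCPL38. Leaving out AT2G05390 or SCPL38, and the counts of loci without reads, were alternatives chosen after seeing the data. Of the silencing list 0 genes were called on chromosomes 2, 4 and 5 alone, where IDN2 does not lie.

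With the replicate number as a block, 15 loci were higher and 2 lower. Same-numbered libraries correlated at -0.256, 0.126 and -0.151 in their deviations, and the other pairs at -0.157 to 0.336. No pairing by number was seen, but deviations within 3 libraries per genotype cannot decide whether samples were paired. Other scalings moved the median log2 fold change of all genes by less than 0.1. Depth limits loci below 10 reads, most of all in paps1-1 replicate 2.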
